A study of Drosophila melanogaster with 4 samples.

Results

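The regions described here are the peaks of accessible chromatin that lie on the 6 heterochromatic scaffolds (2LHet, 2RHet, 3LHet, 3RHet, XHet and YHet) or on chromosome 4 of the Drosophila melanogaster genome, build dm3. They were taken by chromosome name alone from 2 deposited peak lists. The longer list, called list A, had 228 such peaks among 5145, of which 214 lay on Het scaffolds and 14 on chromosome 4. The shorter list, called list B, had 210 among 4027, with 199 on Het scaffolds and 11 on chromosome 4. Accessibility was measured by ATAC-seq, in which the transposase Tn5 inserts sequencing adapters into exposed DNA. The nuclei came from S2 cells, an embryonic Drosophila line with hemocyte-like properties. Of the 4 libraries, 2 were LacZ controls, aimed at a bacterial gene that the fly does not have, and 2 came from cells in which the linker histone H1 was knocked down. Every library's labels name both lists, so neither list was assigned to a group. No difference between the lists is read as a difference between control and H1-depleted cells, and there is no replicate and no test across samples. The identity of the cells was not checked against marker genes, because no dm3 annotation was used here.

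Heterochromatin is the compact part of the genome, rich in transposable elements and simple repeats, that surrounds the centromeres and fills most of the Y chromosome. In dm3 the Het scaffolds hold those pieces of it that could be tied to a chromosome, apart from the arms of the assembly. Chromosome 4 is a small autosome on which expressed genes are interspersed with blocks that carry heterochromatin proteins such as HP1a. H1 binds the nucleosome and the DNA between nucleosomes, and in flies its loss is known to disturb heterochromatin and the silencing of transposable elements. An ATAC-seq peak marks a place where Tn5 inserted more often than the background used by the peak caller would give.

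Each peak has a start, an end, a summit and 3 values by the peak caller. The height at the summit is given as −log10 p, with −log10 q beside it. The area under the significance curve over the peak, divided by the width, is called area per bp. Whether that area counts the whole curve or only its part above the calling threshold was not settled here. Read depth and background set the scale of both measures and are unknown, so heights and areas rank peaks within 1 list and show no change between lists. Intervals are 95% intervals over peaks and cover counting error only. Neighbouring peaks may share a source, and the intervals do not allow for it.

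Peaks were spread over the larger Het scaffolds at similar densities in both lists, and chromosome 4 had fewer per Mb. Scaffold length was taken as the stretch from base 1 to the last peak end of either list, a lower bound on the true length. Densities and covered shares are therefore upper bounds, and the excess is unknown and may differ between scaffolds. Over the 6 scaffolds together, 8.10 Mb, the density was 26.4 peaks per Mb (23.0 to 30.2) in list A and 24.6 (21.3 to 28.2) in list B. On 2RHet it was 24.0 and 23.1 per Mb, on 3LHet 23.4 and 21.8, and on 3RHet 29.4 and 26.1. The short 2LHet had 13 and 11 peaks, or 35.2 and 29.8 per Mb. YHet had 5 and 6, or 32.1 and 38.5 per Mb. XHet had 3 peaks in each list, all within its first 41.1 kb, so its 72.9 per Mb reflects a stretch that ends with the last peak. Chromosome 4 had 10.8 peaks per Mb (5.93 to 18.2) in list A and 8.52 (4.25 to 15.2) in list B over 1.29 Mb. These intervals did not overlap those of the 6 Het scaffolds pooled, but they overlapped those of some single scaffolds, such as 3LHet in list A (16.9 to 31.5) and 2LHet in list B (14.9 to 53.4). They allow for no clustering, and no test was made. The 5 major arms had 30.9 and 19 per Mb, and the unplaced scaffold U 24.9 and 24.3.

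In bases, list A peaks took 1.60% of the Het stretch and list B peaks 1.55%. The share was 1.52% and 1.48% on 2RHet, 1.45% and 1.35% on 3LHet, and 1.58% and 1.51% on 3RHet. Chromosome 4 had 0.569% and 0.499% of its stretch in peaks. The arms had 1.25% and 0.885%, and U 1.24% and 1.22%.

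**Figure D1:**
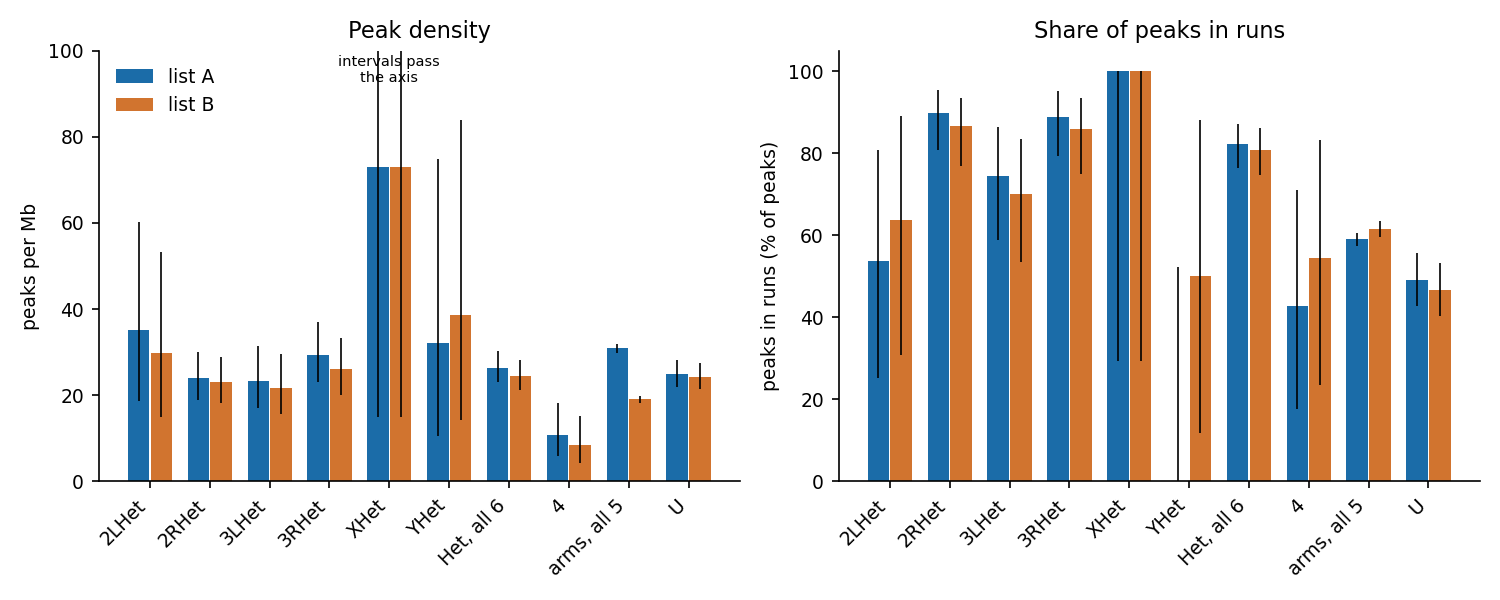
Peaks per Mb (left, bars) and the share of peaks that lie in runs of 3 or more (right, bars) on each Het scaffold, all 6 together, chromosome 4, the 5 major arms and U, for list A (blue) and list B (orange). Lines are 95% intervals for counting error; chromosome 4 has the lowest density in both lists (10.8 and 8.52 per Mb), and the Het scaffolds together have 82.2% and 80.9% of their peaks in runs.

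Peaks on the Het scaffolds came in tight groups separated by long empty stretches. The median distance between neighbouring summits was 1149 bp (1007 to 1365) in list A and 1311 bp (1060 to 1545) in list B. Of the 208 distances in list A, 159 (76.4%) were at most 5 kb, 40 (19.2%) exceeded 50 kb, and 9 (4.33%) lay between. List B had 146 of 193 (75.6%) at most 5 kb, 38 (19.7%) above 50 kb and 9 (4.66%) between. On the arms the middle class held 25.4% of distances in list A and 20.9% in list B, and on U 30.1% and 30.5%. Median distances there were 2962.5 and 2989 bp on the arms and 8174 and 10014 bp on U.

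Sequence after the last peak of a scaffold or of chromosome 4 was left out of the following stretches, because their lengths were not at hand. Up to the last peak, the longest stretch without a peak was on 2RHet, 836 kb in both lists. On 3LHet it was 492 kb in both lists, and on 3RHet 352 kb in list A and 611 kb in list B. Chromosome 4 had a longest empty stretch of 572 kb in list A and 591 kb in list B. Its median distance between neighbouring summits was 2057 bp (644 to 170232) over 13 distances in list A and 1998.5 bp (577 to 177137) over 10 in list B.

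**Figure D2:**
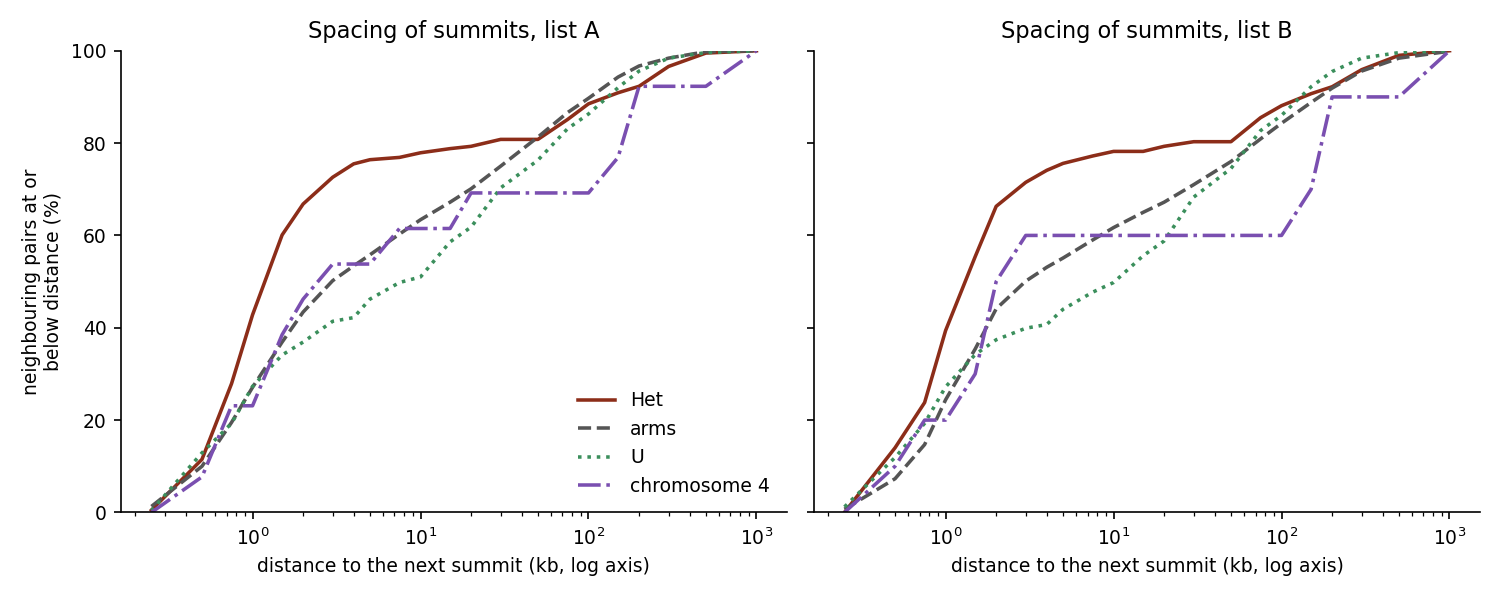
Share of neighbouring summit pairs (vertical axis, percent) at or below a given distance (horizontal axis, kb, logarithmic) on the Het scaffolds, chromosome 4, the arms and U, in list A (left) and list B (right). The Het curve is nearly flat between 5 and 50 kb, where 4.33% and 4.66% of its distances lie.

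A run was defined as 3 or more peaks in a row with at most 5 kb from the end of one to the start of the next. List A had 27 runs on the Het scaffolds, which held 176 of 214 peaks (82.2%, 76.5 to 87.1). List B had 25 runs with 161 of 199 peaks (80.9%, 74.7 to 86.1). On the arms 59.1% of peaks (57.5 to 60.7) lay in runs in list A and 61.6% (59.5 to 63.6) in list B, and on U 49.2% (42.8 to 55.6) and 46.7% (40.3 to 53.2). The Het share was the highest of these in both lists, and its interval met neither the arms' nor U's. 2RHet had 89.7% and 86.7% of its peaks in runs, 3RHet 88.9% and 85.9%, and 3LHet 74.4% and 70%. The runs were short, with a median span of 6.45 kb in list A and 6.84 kb in list B, and a longest span of 11.2 kb in each. Their summed span was 172 kb and 167 kb, or 2.12% and 2.06% of the Het stretch.

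Most runs were found in both lists. Of the 27 list A runs, 24 overlapped a run of list B, and of the 25 list B runs, 24 overlapped one of list A. The other 3 in list A, on 2RHet, 3LHet and 3RHet, had 3 peaks each, and list B had 2 peaks at each place. The other list B run was on YHet, from 133396 to 137336, where list A had 2 peaks.

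The runs with the most peaks lay on 3RHet and 2RHet. On 3RHet, 14 list A peaks ran from 59038 to 70284 and 14 list B peaks from 59033 to 70279, with heights up to 12.7 and 11.9. On 2RHet, 14 list A peaks ran from 1118555 to 1128835, against 12 in list B. A further 2RHet run, from 1145057 to 1155162, had 13 and 14 peaks, with highest summits of 6.45 and 6.35. The next in list A were 10 peaks on 3RHet from 1982392 to 1989427, where list B had 6, and 9 on 2RHet from 1464861 to 1471311, where list B had 8. The 5 largest in list B also included 8 peaks on 3LHet, from 1121655 to 1127983, where list A had 6. At that place 2 of the list A peaks, 711 and 999 bp wide, each overlapped 2 peaks of list B.

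Peak widths on the Het scaffolds ranged from 58 to 7485 bp in list A and from 73 to 6522 bp in list B. The median was 293 bp (263 to 351) in list A and 309 bp (270 to 397) in list B. The arms had 260 bp (253 to 268) and 285 bp (274 to 294), U 282.5 and 289.5 bp, and chromosome 4 237.5 bp (121 to 1128) and 195 bp (109 to 1577). By scaffold, the medians of list A were 310 bp on 2RHet, 320 bp on 3LHet, 263 bp on 3RHet and 288 bp on 2LHet. Those of list B were 290, 311.5, 350.5 and 291 bp. The intervals of these scaffolds overlapped in each list.

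Peaks of 1000 bp or more made up a larger share of the Het peaks than of the arm peaks in list A. They numbered 25 of 214 (11.7%, 7.70 to 16.8) in list A, and in list B 22 of 199 (11.1%, 7.06 to 16.3). The arms had 6.18% (5.42 to 7.0) and 8.36% (7.25 to 9.58), so the intervals overlapped in list B. On U the shares were 8.40% and 8.20%. Such peaks held 51.8% of the Het peak bases in list A and 49.7% in list B. Of the 25, 13 were on 2RHet, and so were 12 of the 22.

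Summits on the Het scaffolds stood near the middle of each list. The median height was 5.01 (4.87 to 5.25) in list A, with a median −log10 q of 2.64, and 5.0 (4.84 to 5.36) in list B. It corresponded to percentile 53.5 of all list A peaks (48.9 to 59.8) and percentile 53.7 of list B (48.4 to 62.3). The arm medians stood at percentiles 46.0 and 44.3, and those of U at 59.9 and 61.4. Chromosome 4 was at percentile 39.4 (28.5 to 75.5) in list A and 27.4 (3.53 to 77.4) in list B, too wide a range to place it above or below the others. Of the Het peaks, 15 (7.01%, 3.98 to 11.3) in list A and 14 (7.04%, 3.90 to 11.5) in list B were among the highest 5% of their list.

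Area per bp ordered the classes the same way. Its Het median was 0.671 (0.505 to 0.776) in list A and 0.617 (0.515 to 0.703) in list B. The arms had 0.558 (0.532 to 0.582) and 0.490 (0.470 to 0.508), U 0.767 and 0.733, and chromosome 4 0.540 and 0.359. The Het interval met that of the arms in list A and lay above it in list B. Among the larger scaffolds, 3RHet had the lowest median in both lists, 0.496 (0.408 to 0.720) and 0.504 (0.386 to 0.611), but the intervals overlapped those of 2RHet and 3LHet. The smallest scaffold sets were higher. The 5 list A peaks of YHet had a median of 2.68, and the 3 of XHet 1.23.

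**Figure D3:**
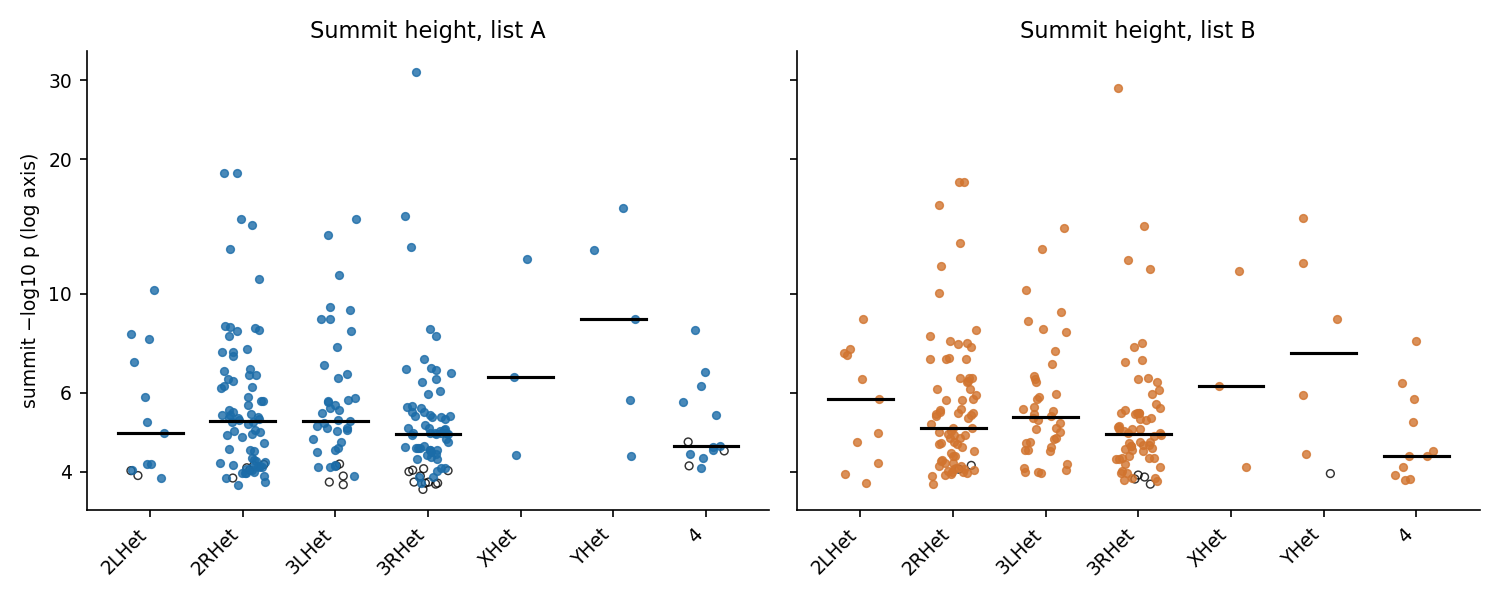
Height of each peak's summit (vertical axis, −log10 p, logarithmic) by scaffold, in list A (left) and list B (right). Each point is 1 peak, filled where the other list has an overlapping peak and open where it has none, and the bar is the median. The 30 open points on Het scaffolds lie between 3.65 and 4.16.

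The highest Het summit of either list lay on 3RHet, in a list A peak from 787656 to 791820 (height 31.4, area per bp 11.4). Its list B partner, from 787656 to 791821, had a height of 28.9 and an area per bp of 10.4, the highest among the Het peaks of list B. The second among Het peaks by area per bp was the narrow first peak of 2RHet, from base 1 to 243, with 6.29 and 7.43. The others among the 5 densest in both lists were the wide peak of 3LHet (6478 and 6454 bp, 6.10 and 5.56), the widest peak of 3RHet and a peak of 2RHet. The 3RHet peak ran from 1517603 to 1525087 in list A (7485 bp, area per bp 6.0), where it overlapped 2 list B peaks, the larger of them 6522 bp wide (5.86). The 2RHet peak ran from 2090873 to 2094215 in list A (height 18.7, area per bp 4.98) and had a height of 17.8 and an area per bp of 4.73 in list B. It was the highest summit of that scaffold.

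On the other scaffolds the highest summit was on the widest peak. On YHet it ran from 71709 to 75444 in list A, with a height of 15.6, against 14.7 in list B. On XHet it ran from 35053 to 38134, with heights of 11.9 and 11.2. On 2LHet it ran from 124000 to 125086, with heights of 10.2 and 8.79. The widest peak of 2RHet, from 685381 to 691446 in list A, had heights of 14.7 and 13.0.

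The highest Het summits and most Het peaks of 3 kb or more lay outside runs, while most peaks of 1000 bp or more lay inside them. Of the 25 list A peaks of 1000 bp or more, 16 were in runs, and of the 22 in list B, 14 were. Of the 10 list A peaks of 3 kb or more, 2 were in a run, and of the 9 in list B, 1 was. Because a run needs 3 peaks, a peak outside runs can still have a close neighbour. In list A the 2RHet peak that ends at 2090760 was followed by one that starts at 2090873. The 3LHet peak that ends at 1285649 was followed by one that starts at 1285806. Others, such as the 3RHet peak from 787656 to 791820, had no neighbour within 5 kb. The 38 list A peaks outside runs had a median height of 5.75 and a highest of 31.4, against 4.95 and 12.7 for those in runs. In list B the 38 peaks outside runs had a median of 6.74 and a highest of 28.9, against 4.98 and 11.9. Median widths were 289 bp outside and 310 bp inside runs in list A, and 282 bp and 314 bp in list B.

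Most Het peaks had a counterpart in the other list. In list A, 23 of 214 Het peaks (10.7%) had no overlapping list B peak, against 33.1% of all list A peaks. In list B, 7 of 199 (3.52%) had no overlapping list A peak, against 12.2% of all list B peaks. Peaks without a partner were 42.4% on the arms and 9.60% on U in list A, and 2.61% and 6.15% in list B, so the Het share was not the lowest in either list. In list B the Het, arm and U shares were all below that of the whole list, which also counts 1312 peaks on the unplaced scaffold string Uextra. Of the 23, 3RHet had 11, 2RHet and 3LHet 5 each and 2LHet 2. Of the 7, 4 lay on 3RHet, 2 on 2RHet and 1 on YHet.

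Het peaks without a partner were low and mostly narrow in both lists. In list A their heights ran from 3.65 to 4.16, with a median of 3.92, against a median of 5.21 for partnered peaks. Their median width was 132 bp (58 to 275), against 341 bp. In list B the 7 had heights from 3.75 to 4.13, against a median of 5.085 for partnered peaks. Their median width was 124 bp (73 to 401), against 315.5 bp. The lowest height of any peak in list A was 3.55, and that of list B 3.64. Of the 23, 16 lay in runs, and for 18 the nearest list B peak was within 5 kb. For the 7 it was between 151 and 3159 bp away.

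The highest Het peaks without a partner in list A were on 3LHet from 569216 to 569317 (height 4.16) and on 2RHet from 1124891 to 1124984 (4.15) and from 1119131 to 1119220 (4.13). In list B they were on 2RHet from 1151549 to 1151656 (4.13) and from 1151155 to 1151227 (4.05), on YHet from 137235 to 137336 (3.96), and on 3RHet from 169856 to 170256 (3.93) and from 2308299 to 2308422 (3.89).

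Paired Het peaks had nearly the same position. Among 176 one-to-one pairs the summits were on the same base in 73 and within 10 bp in 135 (76.7%). The share within 10 bp was 81.3% on U and 62.2% on the arms. Edges moved by a median of 5 bp on the Het scaffolds and on U, and by 18 bp on the arms. List A peaks were the wider in 119 pairs, list B peaks in 44, and 13 pairs had equal widths. Shared bases were 93.6% of the Het peak bases of list A and 96.9% of those of list B, against 68.9% and 97.2% on the arms. Summits moved far in wide peaks of XHet, where the median shift over 3 pairs was 1701 bp, although 98.5% of the list A bases were shared. In 6 cases 1 list A peak overlapped several list B peaks, and in 5 the reverse.

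Several runs on Het scaffolds had the same spacing of summits, and nearly the same heights, as runs elsewhere in the genome. This was noticed in the values, and the rule that follows was set afterwards. A string was 4 peaks in a row, with neighbouring summits at most 5 kb apart. It was called recurring where another string of the same list had all 3 distances within 25 bp, in either orientation, and at least 3 of 4 heights within 0.5. By this rule 37 of 214 list A Het peaks (17.3%, 12.5 to 23.0) lay in recurring strings, as did 34 of 199 list B Het peaks (17.1%, 12.1 to 23.0). The arms had 6.45% (5.68 to 7.29) and 11.1% (9.84 to 12.5), and U 6.80% and 1.64%. Only peaks with close enough neighbours can be in a string, and a larger share of Het than of arm peaks had them. Of the 158 and 146 Het peaks that could be in a string, 23.4% (17.1 to 30.8) and 23.3% (16.7 to 31.0) were in a recurring one. On this base the arms had 14.2% (12.6 to 16.0) and 22.9% (20.4 to 25.5), and U 21.3% and 5.19%, so Het and arms differed by less than their intervals in list B, as did Het and U in list A. The order of Het and arms was not stable, since among peaks with a −log10 q of at least 2 the list B shares were 5.23% on Het scaffolds and 9.44% on the arms. On chromosome 4, 6 peaks in each list could be in a string and 0 were in a recurring one, which allows up to 45.9% of them by the exact interval.

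The recurring string that joined 2RHet and 3LHet had 7 peaks in each. In list A it ran from 361751 to 369069 on 2RHet and from 67221 to 74561 on 3LHet, and both were found in list B. Over 5 peaks from the first 2RHet summit, the same order of distances and heights was met at 4 places in list A. In list B it was met at 7 places. Both Het places were among them in each list. The other places were on 3L in list A, and on 2L and 3L in list B. In list A strings on 2L matched too, but from a later peak. The one at summit 20304685 matched from peak 2 on, and the one at 12936979 from peak 3 on. In list A the summits of peaks 2 to 5 lay between 1301 and 1311, 2906 and 2916, 3712 and 3722, and 4604 and 4625 bp from the first. Their heights at the 4 places were 4.09 to 4.18, 4.10 to 4.22, 4.11 to 4.14, and 4.92 to 4.97. In list B the heights at the 7 places were 4.0 to 4.06, 4.04 to 4.14, 3.91 to 4.0, and 4.73 to 4.83. The first peak varied more, with heights of 7.41 to 8.79 in list A and 7.01 to 9.69 in list B. The place on 3L that starts at 22610355 in list A matched in 5 peaks only, in both lists. At the other places peak 6 had heights of 5.69 to 5.77 in list A and 5.49 to 5.53 in list B. It lay 5985 to 5995 bp (A) and 6159 to 6177 bp (B) from the first summit. Peak 7 varied more, with heights of 7.39 to 8.76 and 7.13 to 9.77. Strings linked to the places above by the rule on distances and heights, directly or through other strings, were found in 23 places in list A. Either orientation counted. Of the 23, 19 were on the arms, 3 on Het scaffolds and 1 on U, and they need not all share the string described. The third Het place was on 3RHet, from 849153 to 853060. In list B they formed 2 separate groups of 7 and 12 places, and the 3RHet place fell in the second.

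**Figure D4:**
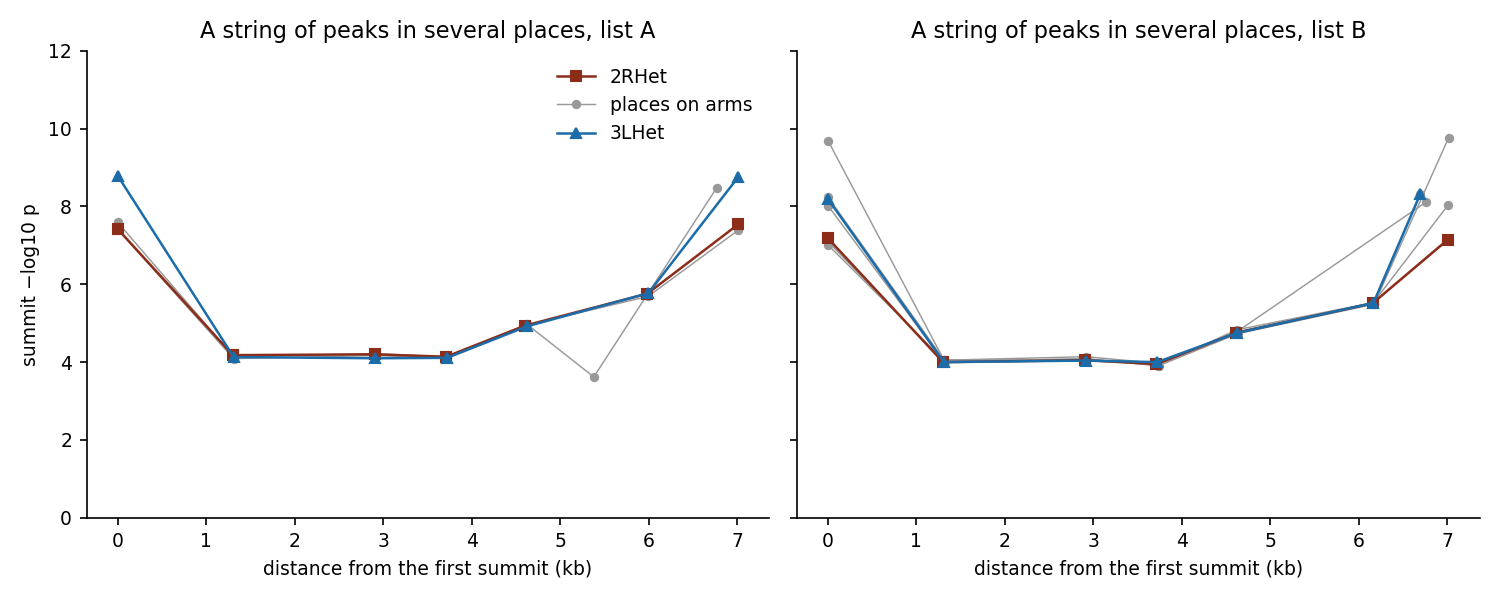
Height of each summit (vertical axis, −log10 p) against its distance from the first summit (horizontal axis, kb) for the string of peaks on 2RHet (squares), on 3LHet (triangles) and at the matching places on the arms (grey circles), in list A (left) and list B (right). Peaks 2 to 5 coincide in distance and height, while the first peak ranges from 7.41 to 8.79 (A) and from 7.01 to 9.69 (B).

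A second recurring string was found side by side on 2RHet, within the run that starts at 1118555. In list A 5 peaks, with summits from 1118638 to 1121688, were followed by 5 peaks with each summit exactly 5760 bp further on. Heights of the first set were 5.16, 4.13, 8.43, 4.12 and 6.79, and those of the second 5.22, 4.15, 8.36, 4.11 and 6.73. Widths were 214, 90, 1100, 129 and 419 bp, against 213, 94, 1100, 127 and 419 bp. In list B 4 peaks of each set were found, again 5760 bp apart, with heights of 4.91, 7.73, 4.0 and 6.37 against 4.94, 7.76, 3.97 and 6.49. The peak that list B lacked in both sets was the 2RHet pair without a partner named above.

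The other recurring strings of list A joined a Het scaffold to an arm. The 4 peaks of 2RHet from 2930059 to 2935662 had heights of 5.26, 12.6, 10.8 and 8.47. A string on 3R, from 3521449 to 3527039, had 4.41, 12.6, 10.8 and 8.48, with distances that differed by at most 21 bp. On 3RHet, 5 peaks from 2049008 to 2053397 matched strings at 2 places on 2R, of which 1 was in the reverse orientation. List B had peaks at both Het places, but by the rule none of them lay in a recurring string. A string that recurred in list B only joined 3LHet, from 1667350 to 1670436, to 3RHet, from 60907 to 64700. Its distances differed by up to 25 bp and its heights by up to 1.16. Over all matches that involved a Het string, the median difference in distance was 4 and 5 bp, and the median difference in height 0.040 and 0.035. Both are limited by the rule that chose the matches and are given as a description. The largest height differences, in the peak that the rule leaves free, were 2.96 and 2.62. Of the 37 list A peaks in recurring Het strings, 33 had a list B partner, and for 25 that partner was in a recurring string of its own list. How reads with several equally good placements were treated is not given in the sources used here, and its part in the matches was not tested.

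Chromosome 4 had 1 run, which was present in both lists and held its widest and highest peaks. Its 6 peaks began at base 340678 in both lists and ended at 348793 (A) and 348788 (B). The first, from 340678 to 341805, had heights of 8.28 and 7.85 and widths of 1128 and 1140 bp. It was the highest of the chromosome in each list, at percentile 89.5 of list A and 87.7 of list B. The peak from 342785 to 344402 had heights of 6.23 and 5.80 and widths of 1618 and 1577 bp. The peak from 345668 to 347761 was 2094 and 2077 bp wide, with heights of 6.68 and 6.32. Between and after these lay 3 narrow peaks. The one from 344819 to 345028 had heights of 4.48 and 4.09, the one from 345343 to 345521 had 4.39 and 3.94, and the one from 348378 to 348793 had 4.55 and 4.45.

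Outside the run, chromosome 4 peaks were narrow and mostly low. The first, from 204155 to 204333, had heights of 4.07 and 3.85 and widths of 179 and 120 bp. A peak from 522208 to 522472 had a height of 5.35 in list A and 4.33 in list B, and widths of 265 and 160 bp. A close pair came next, of which the first, from 699168 to 699623, had heights of 5.72 and 5.17 and widths of 456 and 428 bp. The second, from 699847 to 699948, had 4.56 and 3.84 and widths of 102 and 90 bp. The last, from 1290798 to 1291069, had heights of 4.29 and 4.34, the one chromosome 4 pair with the higher value in list B. Its widths were 272 and 195 bp.

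List A had 3 chromosome 4 peaks without a partner, and all 11 list B peaks of that chromosome had one (71.5 to 100%). The share without a partner in list A was 3 of 14 (21.4%), against 33.1% of all list A peaks. The interval of the partnered share, 78.6%, was 49.2 to 95.3%, too wide to place chromosome 4 above or below the whole list. The 3 lay from 529164 to 529262 (height 4.12), from 1272256 to 1272464 (4.66) and from 1290216 to 1290336 (4.45). The nearest list B peaks were 6733, 18373 and 501 bp away. These heights were within the range of the partnered chromosome 4 peaks of list A, 4.07 to 8.28. Of the 11 pairs, 10 were wider in list A, and the log2 width ratio, B over A, had a median of -0.18 (-0.72 to -0.01). Shared bases were 87.5% of the list A and 99.7% of the list B peak bases on the chromosome.

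**Figure D5:**
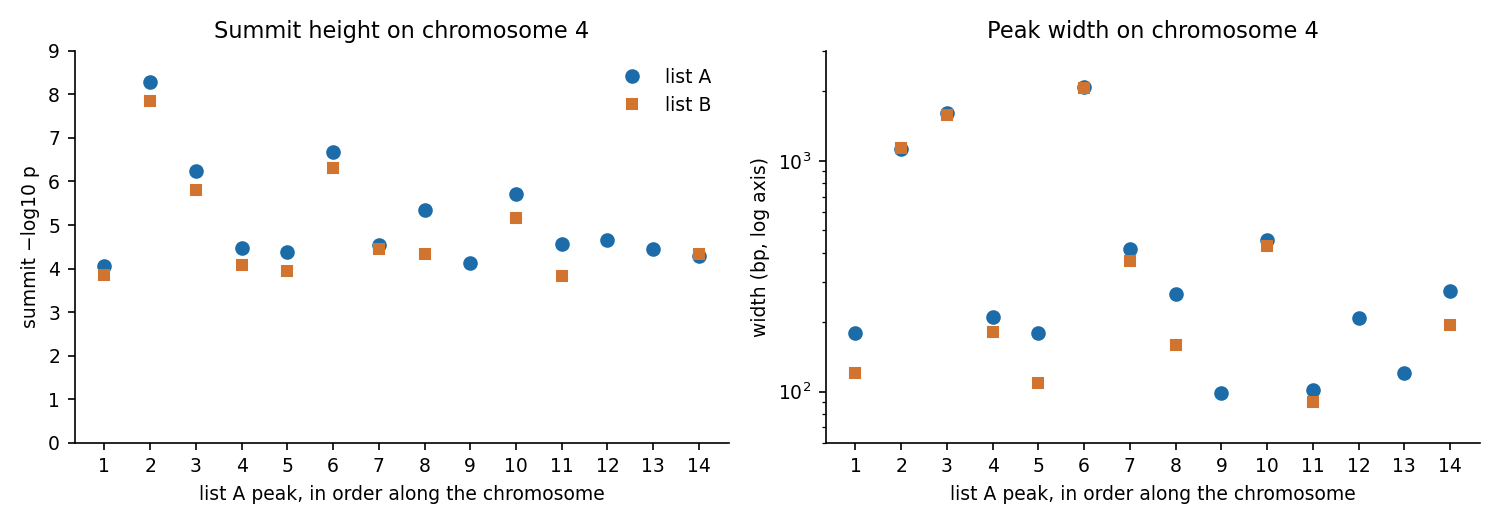
Summit height (left, −log10 p) and width (right, bp, logarithmic) of the 14 list A peaks of chromosome 4 in their order along the chromosome (circles) and of the overlapping list B peaks (squares). Peaks 2, 3 and 6, which exceed 1000 bp in both lists, are in the run, and peaks 9, 12 and 13 have no list B square.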

How the data were processed

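ATAC-seq was performed on 4 libraries of S2 cells, 2 treated against LacZ and 2 depleted of H1. Per the submitters' processing notes, reads were handled with Bowtie2 (aligner) and Genrich 0.5 (peak caller) on build dm3. The sources used here do not give options, filters, placement of multiply mapping reads or pooling of libraries. Both deposited peak lists have 10 columns and no header. By the place of the columns, the deposited signal is an area under the significance curve, whole or above the calling threshold. The deposited −log10 values are p-values and q-values at the summit, and start, end and summit offset are positions. The deposited score equalled 1000 times area per bp, capped at 1000, within 1 unit in all 5145 and 4027 peaks. The lists carry no read counts, so depth is unknown.

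Overlaps (at least 1 bp), runs, strings, medians with binomial order-statistic intervals, shares with exact (Clopper-Pearson) intervals and densities with exact Poisson intervals were computed with scipy 1.17.1, pandas 2.3.3 and numpy 2.4.6 under Python 3.11.15, figures with matplotlib 3.10.9, and the code was tested on simulated data. Coordinates are 1-based. The members, tests and alternatives were chosen with earlier results of these data known. Peaks named are all of chromosome 4, the highest and the widest on each Het scaffold, the 5 of highest area per bp, the 5 highest without a partner and the 5 runs with the most peaks in each list; chromosome 4 peaks counted among the highest without a partner. Runs and peaks named beyond this, and all strings, were chosen after their values were seen.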

Additional observations from a re-analysis of the deposited data

How the results depend on the processing

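No paired analysis was possible because neither list can be assigned to a library or replicate number, and for the same reason no replicate could be left out. Over 16 Het results and 15 alternative settings, 67 of 121 values stayed within the interval of the reported one and 54 moved; 0 reversed, as shares, densities and medians have no sign. The 3 settings on strings were chosen after seeing the data. In values for list A and then list B, the stronger 50% of each list gave densities of 14.2 and 13.1 per Mb, median widths of 520 and 592.5 bp, heights of 6.14 and 6.29, areas per bp of 1.06 and 1.02, spacings of 2907 and 2552.5 bp, run shares of 62.6% and 59.4%, and string shares of 6.96% and 7.55%. A −log10 q of at least 2 gave 19.9 and 18.9 per Mb, 406 and 414 bp, heights of 5.40 and 5.42, areas of 0.844 and 0.825, spacings of 1698 and 1873 bp, string shares of 7.45% and 5.23%, and a list B run share of 71.2%. Merging within 500 bp gave 14.8 and 14.7 per Mb, 506.5 and 417 bp, spacings of 3390 and 3059 bp, run shares of 62.5% and 66.4%, and in list A a height of 5.32 and a string share of 10.8%. With only as many of the strongest list A peaks as list B holds, partner shares were 98.9% and 87.9%, and list A had 21.5 per Mb, 391 bp, a height of 5.31, an area of 0.799, a spacing of 1451 bp and a string share of 10.3%. A reciprocal overlap of 50% gave list B a partner share of 92.0%. Runs of at least 4 peaks held 73.8% and 73.4%. Without 2RHet the list A string share was 11.8%. String distances within 10 bp gave 11.1% in list B, within 50 bp 24.8% and 31.7%, and without the rule on heights 23.4% and 26.1%. The cause of these shifts was not tested. In some settings fewer or wider peaks entered, and in others only the rule for overlaps, runs or strings changed. In each setting that changed the peaks or the rule for runs, the Het run share exceeded that of the arms. The smallest margin was 59.4% (49.5 to 68.9) against 48.0% (44.9 to 51.0), in the stronger 50% of list B, where the intervals overlapped. The unknown depth limits every height and area to use within its own list.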

Other observations

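The last peak called on 2LHet and the first on 2RHet had higher summits in list B than in list A. Both were picked after their values were seen. The last peak of 2LHet ran from 368463 to 368782 in list A (320 bp, height 4.16) and from 368010 to 368857 in list B (848 bp, height 7.38). The first peak of 2RHet, from base 1 to 243 in both lists, had heights of 14.25 and 15.81. Of the 176 one-to-one Het pairs, list B had the higher summit in 56, and these 2 were the pairs in which it was higher by more than 1. The median difference, list B minus list A, was -0.17. The scales of the lists are not comparable, so the values show only that these 2 pairs depart from the other Het pairs.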
